A study of Mus musculus with 32 samples.

Results

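Krüppel-like factors (Klf proteins) are transcription factors that bind GC-rich and CACCC sequences through zinc fingers at their C-terminal end. The family divides by the partners it recruits. Klf2, Klf4, Klf5, Klf6 and Klf7 mostly work as activators, Klf3 is a repressor that binds the corepressor CtBP, and Klf9, Klf10, Klf13 and Klf16 recruit the Sin3a corepressor. In central neurons several members are known as regulators of axon growth, with Klf6 and Klf7 as promoters and Klf4 and Klf9 as inhibitors. The 10 genes described here were taken by symbol and stand among 55573 genes in the count table. All 10 were measured, and in each comparison all 10 passed the filter on low counts (a mean of 10 or more).

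Neurons came from the hippocampi of newborn mice, pooled within a litter, and were grown for 15 days on a porous membrane that lets axons and dendrites pass to its underside. Cell bodies stay above the membrane, so RNA from above it is called soma here, although some processes remain there too, and RNA from below it is called neurites. Wild-type (WT) cultures were from C57BL/6 mice and Mettl3 KO cultures from Mettl3Flox/Flox mice, so strain and genotype cannot be told apart. Mettl3 is the catalytic subunit of the methyltransferase that writes m6A. Both kinds of culture received an adeno-associated virus carrying Cre-P2A-dTomato on day 7, with Cre under the synapsin promoter, which is active in neurons. On day 14 both were silenced for 16 h by D-AP5 (50 µM) together with tetrodotoxin (1 µM). They were then left untreated (Ctrl) or depolarized for 2 h by KCl at 55 mM. The RNA-seq libraries span 2 genotypes, 2 fractions and 2 treatments, with 2 libraries per group from distinct litters, 16 libraries in all, and a further 16 libraries were made by DART-seq, in which an APOBEC1-YTH fusion converts C to U next to m6A.

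The RNA-seq libraries held 33789183 to 71394235 counted fragments. Fos, an immediate early gene, rose from 12.4 and 12.9 CPM (counts divided by library size, with edgeR's TMM scaling) in untreated WT soma to 2747 and 3202 after KCl. Mettl3 was at 16.1 and 16.7 CPM in untreated WT soma and at 8.93 and 11.0 in untreated KO soma, a log2 difference of −0.73 ± 0.39 (SE) that did not pass the test (adjusted p = 0.624). This count covers the whole gene. The authors report that the floxed exon was lost and that METTL3 protein was almost completely gone. The KO libraries repeated each other less well than the WT libraries. The log2 ratio between duplicates had an SD of 0.167 to 0.364 across 15170 genes in the WT groups and of 0.502 to 1.33 in the KO groups. In both fractions of KCl-treated KO replicate 1, markers of the oligodendrocyte lineage summed to 3665 and 7329 CPM, against 58.0 to 191 in the remaining libraries. Astrocyte markers there summed to 9937 and 19389 CPM (1179 to 6778 elsewhere), microglial markers to 236 and 173 CPM (10.4 to 34.7 elsewhere), and neuronal markers to 1576 and 956 CPM (3613 to 5730 elsewhere). Neuronal, astrocyte, microglial, oligodendrocyte-lineage and fibroblast or mural markers were all above a count of 0 in every library. RNA of non-neuronal marker genes was thus counted beside that of neuronal ones. A count above 0 does not by itself show that a cell type was present. The labels give replicate numbers and name no insert. For brevity, the KCl-treated KO libraries of replicate 1 are called insert 1 below, and those of replicate 2 insert 2. The KCl responses in KO neurons and their difference from WT are given with and without insert 1. In such bulk samples, fewer cells of a type and less RNA per cell cannot be told apart.

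The sequence upstream of the start of Klf4 and Klf6 is shown because these are the members that rose with KCl in both fractions of WT neurons. Each window holds the 250 bases before the RefSeq start (GRCm38.p6), 5′ to 3′ on the strand of the gene, and capitals mark the GC box GGGCGG on either strand, a sequence that Klf and Sp proteins bind.
Klf4 (chr4:55532476-55532725, minus strand): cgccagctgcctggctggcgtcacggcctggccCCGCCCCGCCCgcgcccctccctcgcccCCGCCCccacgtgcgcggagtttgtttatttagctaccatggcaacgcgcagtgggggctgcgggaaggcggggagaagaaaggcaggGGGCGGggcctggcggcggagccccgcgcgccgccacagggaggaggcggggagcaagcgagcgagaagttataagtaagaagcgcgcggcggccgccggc
Klf6 (chr13:5861239-5861488, plus strand): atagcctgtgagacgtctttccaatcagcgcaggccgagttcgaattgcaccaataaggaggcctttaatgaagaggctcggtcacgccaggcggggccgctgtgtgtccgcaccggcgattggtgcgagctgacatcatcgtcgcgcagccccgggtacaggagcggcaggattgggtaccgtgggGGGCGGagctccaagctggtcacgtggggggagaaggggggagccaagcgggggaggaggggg

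Motifs were counted on both strands in windows that run from 250 bases before the start to 50 after it. The set of promoter windows used here held 7 of the 10 genes, without Klf5, Klf10 and Klf16. Klf4 held 4 GC boxes, 2 of which overlap, and Klf6 held 1. The GC box was present in 6 of the 7 windows and in 35.7% of all 32851 mouse promoter windows. The CACCC box was present in 5 of 7 windows and in 57.5% of all, and it was not found in the windows of Klf4 and Klf6. The core of the cAMP response element, TGACG, was present in 5 of 7 and in 20.8% of all. Klf4 held 1 such core and Klf6 none, and no window held the full element TGACGTCA, which 1.79% of all promoters hold. The AP-1 motif TGANTCA was found once, in Klf9 (7.81% of all), the Mef2 motif CTANNNNTA, with A or T at each N, was found in Klf2, as 2 overlapping matches (3.60% of all), and the serum response CArG box was found in no window (1.63% of all). A match of letters does not show binding, and its absence says only that these letters are not in this window.

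The question of the first comparison is how 2 h of depolarization changed these RNAs in WT soma. Klf4, Klf6 and Klf7 of the activator group rose, while Klf2 and Klf5 of the same group were not called. The repressor Klf3 fell, and the 4 Sin3a-binding members stayed within 2-fold. A gene was called at an adjusted p of at most 0.05 (edgeR quasi-likelihood test, Benjamini-Hochberg over 24060 genes) with a change of at least 2-fold. By that rule 3 of 10 members were called higher, where 3.74% of all genes tested were, and 1 of 10 was called lower, against 2.96% of all genes. The median log2 change was 0.71 over the 10 members and 0.01 over all genes. In a fit over all 16 libraries, which takes in the wider spread of the KO libraries, Klf4 and Klf6 stayed called, whereas Klf7 (adjusted p = 0.0995) and Klf3 (adjusted p = 0.414) did not.

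Klf4, best known as a reprogramming factor of stem cells, lies on chr4:55527143-55532466. It was nearly silent in untreated WT soma, at 1.33 and 1.51 CPM (108 and 98 fragments), and stood at 124 and 88.5 CPM after KCl. Both KCl libraries lay far above both untreated ones, with a log2 change of 6.15 ± 0.24 (SE, adjusted p = 9.73e-08), or 70.8-fold. By size of change it was number 16 of the 899 genes called higher. Klf6, a ubiquitous factor that promotes axon growth (chr13:5861482-5870394), was already expressed before treatment, at 24.8 and 26.7 CPM, and stood at 201 and 141 CPM after KCl. Its log2 change was 2.66 ± 0.16 (adjusted p = 2.12e-06), which placed it at number 223 of the 899.

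Klf7, a close relative of Klf6 that is prominent in the developing nervous system, had 56.8 and 50.7 CPM in untreated WT soma and 152 and 105 CPM after KCl. It was called higher with a log2 change of 1.18 ± 0.16 (adjusted p = 0.000953), and without KCl-treated soma replicate 1 the change was 0.92, under the 2-fold threshold. Klf7 lies on chr1:64029447-64122282, and 3196 of its 8131 exon bases (39.3%) are shared with the gene Gm26649 on the opposite strand. Counting ignored strand, and a read over exons of both genes counts for neither by default, so reads in the shared bases can be missing from Klf7. Gm26649 was at a count of 0 in all 16 libraries, which for the same reason does not show that it is silent. The size of the loss for Klf7 was not tested.

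Klf3 moved the other way. It had 11.62 and 10.02 CPM in untreated WT soma and 3.83 and 4.40 CPM after KCl, with no overlap between the groups. The log2 change was −1.47 ± 0.18 (adjusted p = 0.000489), number 335 of the 712 genes called lower. Its gene (chr5:64803388-64832901) shares 404 of 11243 exon bases with Gm20033, which had 9 to 29 fragments in the WT soma libraries.

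**Figure D1:**
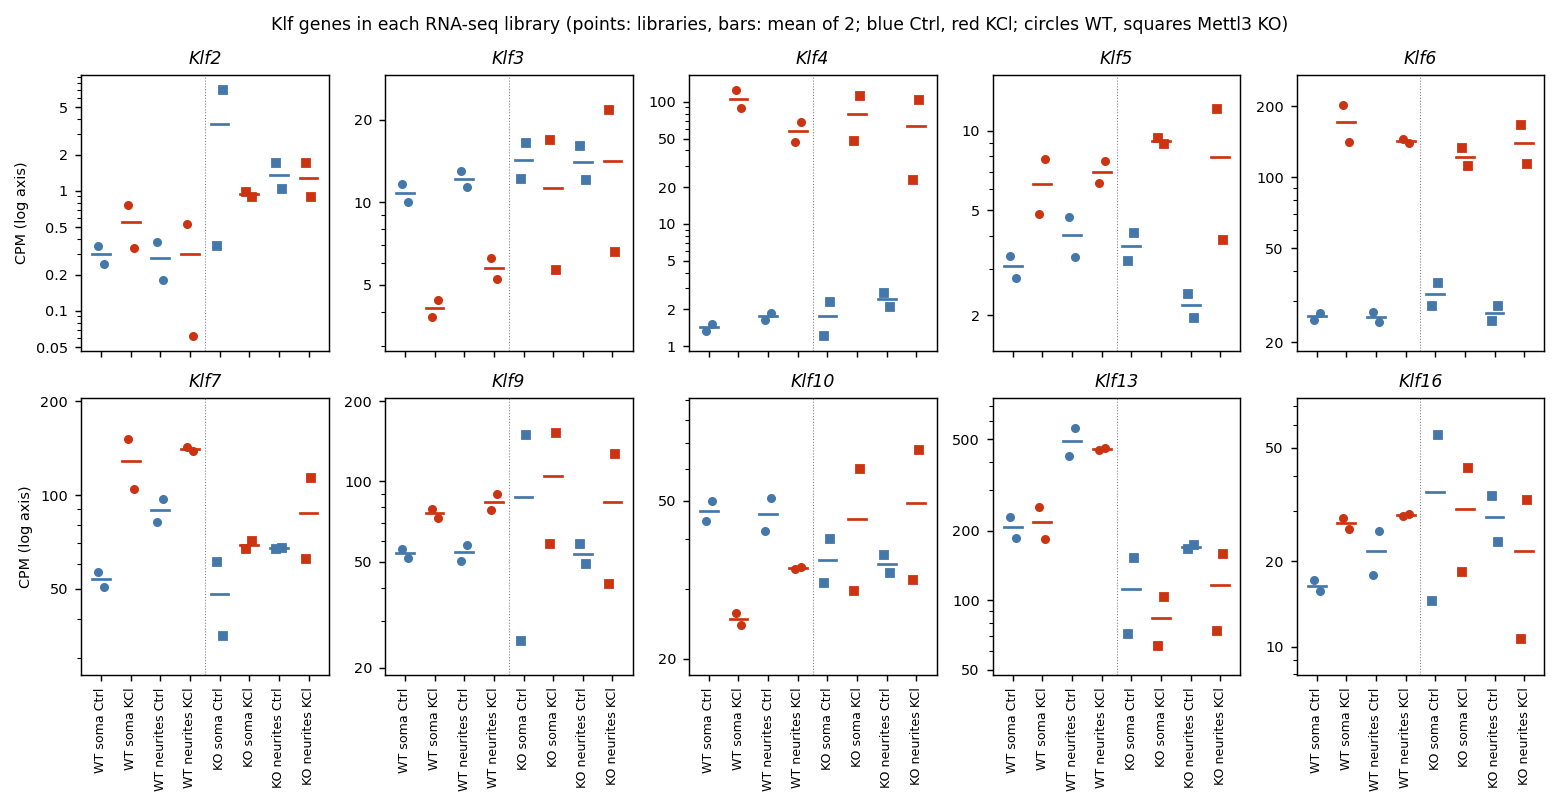
CPM of each gene in each RNA-seq library, on a log axis per gene, with untreated libraries in blue, KCl libraries in red, WT as circles, Mettl3 KO as squares and a bar at the mean of 2. The KCl libraries of Klf4, Klf5 and Klf6 lie wholly above the untreated ones in each fraction and genotype, and within untreated KO soma the duplicates of Klf2, Klf9 and Klf16 lie farthest apart.

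The other members passed the p threshold without the fold, or passed neither. Klf10, first described as an early gene induced by TGF-β, went from 44.5 and 49.8 CPM to 26.1 and 24.3 CPM, a log2 change of −0.98 ± 0.13 (adjusted p = 0.00067). That is 1.97-fold, just short of the threshold, and without KCl-treated soma replicate 1 the change was −1.01 and was called. Klf5, known from proliferating epithelia, was low, at 3.36 and 2.77 CPM untreated and 4.82 and 7.80 after KCl (log2 change 0.97 ± 0.27, adjusted p = 0.0366). Without KCl-treated soma replicate 1 its change was 1.30 and was called.

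Among the remaining Sin3a-binding members, Klf9, a target of glucocorticoid and thyroid hormone receptors, had 55.7 and 51.7 CPM untreated and 78.9 and 73.0 after KCl (log2 change 0.42 ± 0.12, adjusted p = 0.0388). Klf16 had 17.1 and 15.7 CPM untreated and 28.5 and 25.9 after KCl (log2 change 0.65 ± 0.16, adjusted p = 0.0236). For both, the KCl libraries lay above the untreated ones by less than 2-fold. Klf13 had 231 and 186 CPM untreated and 253 and 184 after KCl, so the groups overlapped, and the 95% interval of its log2 change ran from −0.39 to 0.37. Klf2, with Klf4 an endothelial factor, was counted in only 16 to 40 fragments per WT soma library, and the interval of its log2 change, from −0.82 to 2.37, was too wide to tell a rise from a fall.

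The treatment reordered the family. Per kilobase of exon, Klf13 led in untreated WT soma at 27.7 CPM per kilobase (24.7 and 30.6 in the libraries), followed by Klf10 at 11.3 and Klf9 at 11.2, whose libraries overlapped. Klf7, Klf16 and Klf6 came next at 6.61, 6.13 and 5.86 and overlapped in turn, and Klf3, Klf5, Klf4 and Klf2 lay between 0.962 and 0.160. Klf7 and Klf3 are divided by their whole exon length, although part of it is shared with other genes (39.3% with Gm26649 for Klf7). Reads in shared bases may not be counted, so these levels may be too low, that of Klf7 most. The order and the shares carry this limit. After KCl, Klf6 (39.0), Klf4 (34.8) and Klf13 (29.1) headed the order and were not separated beyond their libraries. Klf4 and Klf6 together made up 8.21% and 9.71% of the summed per-kilobase level of the 10 genes in untreated WT soma, and 49.8% and 46.6% after KCl. The share of Klf13 was 41.3% and 36.6% before and 19.4% and 18.7% after, at a level whose change did not pass the test.

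**Figure D2:**
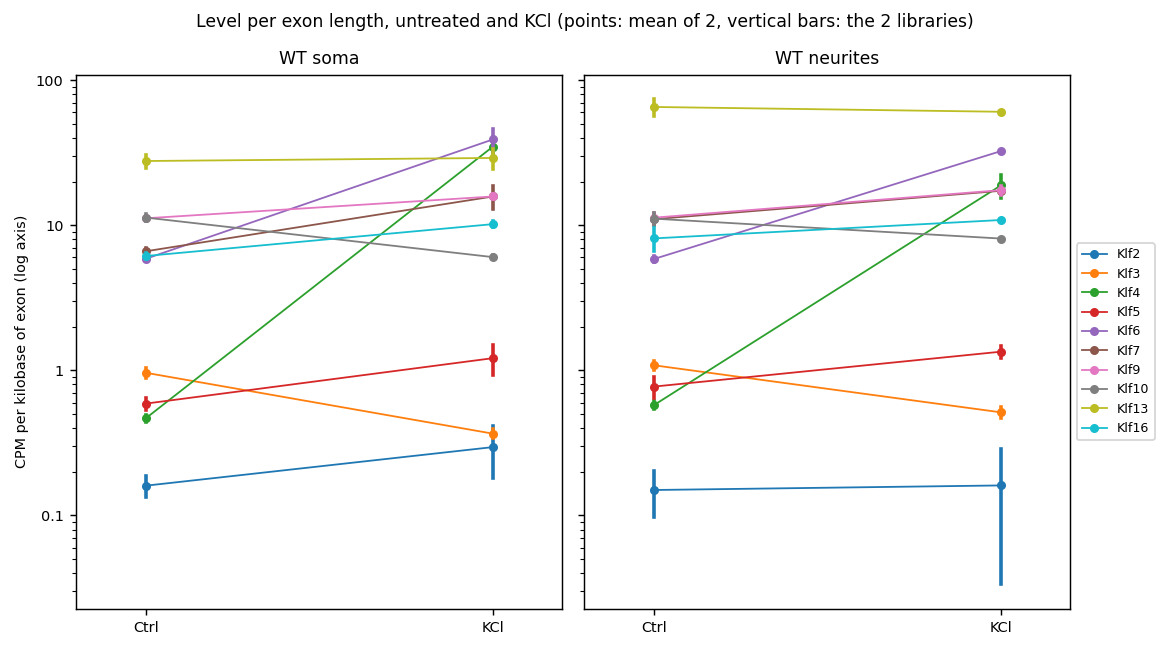
Level per kilobase of exon (CPM per kilobase, log axis) in untreated and KCl-treated WT soma and neurites, with points at the mean of 2 libraries and vertical bars joining them. Klf4 goes from the ninth place of 10 in untreated soma to the second after KCl.

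In WT neurites, taken from the underside of the same inserts, Klf4 and Klf6 rose and Klf3 fell. There 2 of 10 members were called higher (3.33% of 22059 genes) and 1 lower (1.7% of genes), with a median log2 change of 0.57 over the members and 0.01 over all genes. Klf4 had 1.64 and 1.86 CPM untreated and 47.0 and 67.7 after KCl (log2 change 5.08 ± 0.24, adjusted p = 7.98e-07), number 27 of the 734 genes called higher. Klf6 had 26.8 and 24.5 CPM untreated and 145 and 139.9 after KCl (log2 change 2.51 ± 0.16, adjusted p = 6.07e-06). Both were separated from their untreated libraries by far more than the duplicates differed.

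Klf3 fell in neurites from 13.0 and 11.4 CPM to 6.27 and 5.27 CPM, by 1.04 ± 0.18 on the log2 scale (adjusted p = 0.00554). This call sat at the fold threshold, since the change was −0.94 without untreated neurite replicate 1 and −0.90 without KCl-treated neurite replicate 2, where it was lost. It was also lost in the fit over all 16 libraries (−1.08, adjusted p = 0.768). Klf7 had 82.1 and 96.9 CPM untreated and 143 and 138 after KCl, a log2 change of 0.69 ± 0.16 (adjusted p = 0.0251) that passed on p but not on fold. Klf9 likewise had a log2 change of 0.67 ± 0.12 (adjusted p = 0.006). For Klf2, Klf5, Klf10, Klf13 and Klf16 the adjusted p was between 0.0705 and 0.981, and untreated and KCl libraries overlapped in Klf2 and Klf13.

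In Mettl3 KO neurons no gene passed the test in either fraction (0% of 23679 genes in soma and 0% of 22199 in neurites, higher or lower), although 1562 and 1390 genes had an unadjusted p of at most 0.05. DESeq2 called 219 genes higher and 51 lower in soma and 225 higher and 28 lower in neurites, among them Klf4 and Klf6 in both fractions. The 2 genes also had KCl libraries that lay wholly above the untreated ones in both fractions. So did Klf5 (log2 change 1.26, adjusted p = 0.751 in soma, and 1.78, adjusted p = 0.737 in neurites), and Klf7 in soma. How many of all genes were separated in this way was not counted. Klf4 had 1.22 and 2.29 CPM in untreated KO soma and 47.3 and 111 CPM after KCl, a log2 change of 5.42 ± 0.89 (adjusted p = 0.3). In KO neurites it had 2.74 and 2.09 CPM untreated and 22.8 and 104 after KCl (4.64 ± 0.87, adjusted p = 0.381). The lower KCl value in each fraction came from insert 1, the one with high glial markers, where Fos stood at 1355 and 671 CPM against 4280 and 2881 in insert 2. Without that insert the log2 change of Klf4 was 5.93 in soma, which passed the test (adjusted p = 0.0408), and 5.45 in neurites (adjusted p = 0.0661).

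Klf6 had 28.5 and 35.5 CPM in untreated KO soma and 132 and 111 after KCl (log2 change 1.87 ± 0.38, adjusted p = 0.387), and 24.6 and 28.5 CPM in untreated KO neurites and 167 and 113 after KCl (2.31 ± 0.38, adjusted p = 0.381). Unlike those of Klf4, its higher KCl values came from insert 1, and without that insert the changes were 1.76 (adjusted p = 0.485) and 2.11 (adjusted p = 0.296). Klf3, which fell in WT, was split between the KO inserts. It had 12.1 and 16.5 CPM in untreated KO soma and 16.9 and 5.65 after KCl, and the pair in KCl-treated neurites was 21.6 and 6.58, so that insert 1 was at or above the untreated libraries and insert 2 below them. Its log2 changes were −0.41 ± 0.70 in soma and −0.09 ± 0.69 in neurites (adjusted p = 0.872 and 0.974), and −1.38 and −1.07 without insert 1, where neither passed the test. The part of the glial content in these values was not tested. Klf7 had 61.2 and 35.4 CPM in untreated KO soma and 67.4 and 71.1 after KCl, with a log2 change of 0.48 ± 0.42 (adjusted p = 0.781), and of 0.53 without insert 1 (adjusted p = 0.992).

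**Figure D3:**
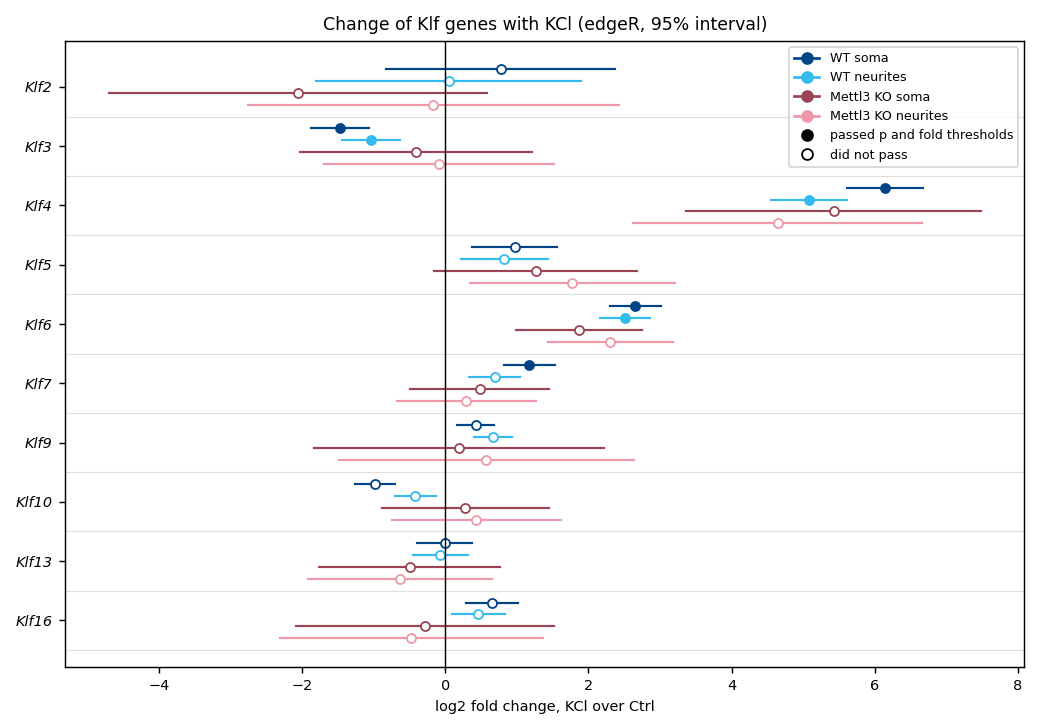
Fitted log2 change with KCl for each gene in WT soma, WT neurites, Mettl3 KO soma and Mettl3 KO neurites, with 95% intervals from edgeR, filled where the change passed both thresholds. Klf4 and Klf6 lie above 0 with their whole interval in all 4, and the KO intervals are the wider ones for every gene.

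Whether the soma response differed between genotypes was tested directly, as the KO change minus the WT change over all 16 libraries. No gene was called (0% of 24058 genes, 493 at an unadjusted p of at most 0.05), and DESeq2 called 0 genes higher and 2 lower, neither of them a member. The difference was −0.73 ± 0.84 for Klf4, −0.81 ± 0.36 for Klf6, −0.74 ± 0.46 for Klf7 and 1.05 ± 0.76 for Klf3 (adjusted p = 0.994 for each). Klf10 had the lowest unadjusted p of the members (0.0354), with a difference of 1.24 ± 0.52 (adjusted p = 0.994), and Klf6 had the next lowest (0.047). Without KCl-treated KO insert 1 the difference was 0.084 for Klf3, −0.22 for Klf4, −0.90 for Klf6, −0.65 for Klf7 and 1.70 for Klf10. With single KO soma libraries left out, that of Klf4 lay between −1.47 (without KCl replicate 2) and −0.16 (without untreated replicate 2), that of Klf3 between 0.046 (without KCl replicate 1) and 1.63 (without KCl replicate 2), that of Klf7 between −1.04 (without untreated replicate 2) and −0.29 (without untreated replicate 1), and that of Klf10 between 0.64 (without KCl replicate 2) and 1.66 (without KCl replicate 1). Without untreated KO soma replicate 1, 1317 genes were called higher and 128 lower, again with no member among them. The 95% interval of the difference was −2.57 to 1.10 for Klf4 and −1.60 to −0.01 for Klf6, so a Klf4 response in KO soma well under that of WT was not separable from an equal one at this spread.

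Before treatment, the genotypes were compared in soma. Of 23750 genes 0.185% were called, and no member was, with a median log2 difference of 0.31 over the members and 0.02 over all genes. Klf13 had 71.5 and 153 CPM in untreated KO soma against 231 and 186 in WT (log2 difference −0.90 ± 0.42, adjusted p = 0.566). It was lower in every KO library than in every WT library of the same fraction, at 63.4 to 153 CPM against 184 to 253 in soma and 73.7 to 174 against 424 to 559 in neurites. The difference was −0.45 without untreated KO soma replicate 1 and −1.57 without replicate 2, and passed the test in neither. Astrocyte markers summed to 1966 and 2571 CPM in untreated KO soma against 1179 and 1200 in WT, and their part in the Klf13 values was not tested. The neurite difference between genotypes was not tested. KO soma replicate 2 stood apart in other members, with Klf9 at 149 CPM against 25.2 in replicate 1, Klf16 at 55.4 against 14.5, and Klf2 at 394 fragments against 16. Klf2 was the member that DESeq2 called higher in untreated KO soma, on that 1 library.

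The next comparison set the neurite libraries against the soma libraries of WT neurons, unpaired. Klf13, which restrains transcription of its targets through Sin3a, was the one member called higher in neurites in both conditions. It had 424 and 559 CPM in untreated neurites against 231 and 186 in soma, a log2 ratio of 1.14 ± 0.17 (adjusted p = 0.0021), and 451 and 460 CPM against 253 and 184 after KCl, a log2 ratio of 1.07 ± 0.18 (adjusted p = 0.00377). Neither pair of groups overlapped. In the fit over all 16 libraries no gene was called in either condition, and the ratios of Klf13 were 1.24 (adjusted p = 0.489) and 1.06 (adjusted p = 0.877). Klf7 also passed in untreated neurons, at a log2 ratio of 0.64 ± 0.16 (adjusted p = 0.0206), but lost the call without soma replicate 1 (0.80), soma replicate 2 (0.64) or neurite replicate 2 (0.52). These were 2 of 10 members called higher in untreated neurites at the 1.5-fold threshold, where 9.01% of 23200 genes were, and none was called lower, where 4.54% of genes were.

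After KCl, 1 member was called higher in neurites (6.87% of 23028 genes) and 1 lower (2.73% of genes). The lower one was Klf4, with 47.0 and 67.7 CPM in neurites against 124 and 88.5 in soma (log2 ratio −0.87 ± 0.19, adjusted p = 0.0131). Before treatment its ratio had been 0.20 ± 0.25 (adjusted p = 0.608). The call after KCl was lost without KCl-treated soma replicate 1 (−0.60) and without KCl-treated neurite replicate 1 (−0.64). Fos had a log2 ratio of −0.71 ± 0.11 after KCl. The ratio of Klf6 was −0.10 ± 0.15 untreated and −0.25 ± 0.15 after KCl (adjusted p = 0.681 and 0.308). The 95% interval after KCl ran from −0.58 to 0.08, and without KCl-treated soma replicate 2 the ratio was −0.47 (adjusted p = 0.0134), short of 1.5-fold.

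The change of the ratio with KCl was tested in itself. It called no gene (0% of 23200 genes, 1132 at an unadjusted p of at most 0.05), and DESeq2 called 3 genes higher and 11 lower, none of them a member. Without KCl-treated soma replicate 2, 284 genes were called higher and 12 lower, again with no member. For Klf4 the change was −1.07 ± 0.31 (unadjusted p = 0.0062, adjusted p = 0.956), and it passed when low-count genes were kept in the fit (adjusted p = 0.0146).

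**Figure D4:**
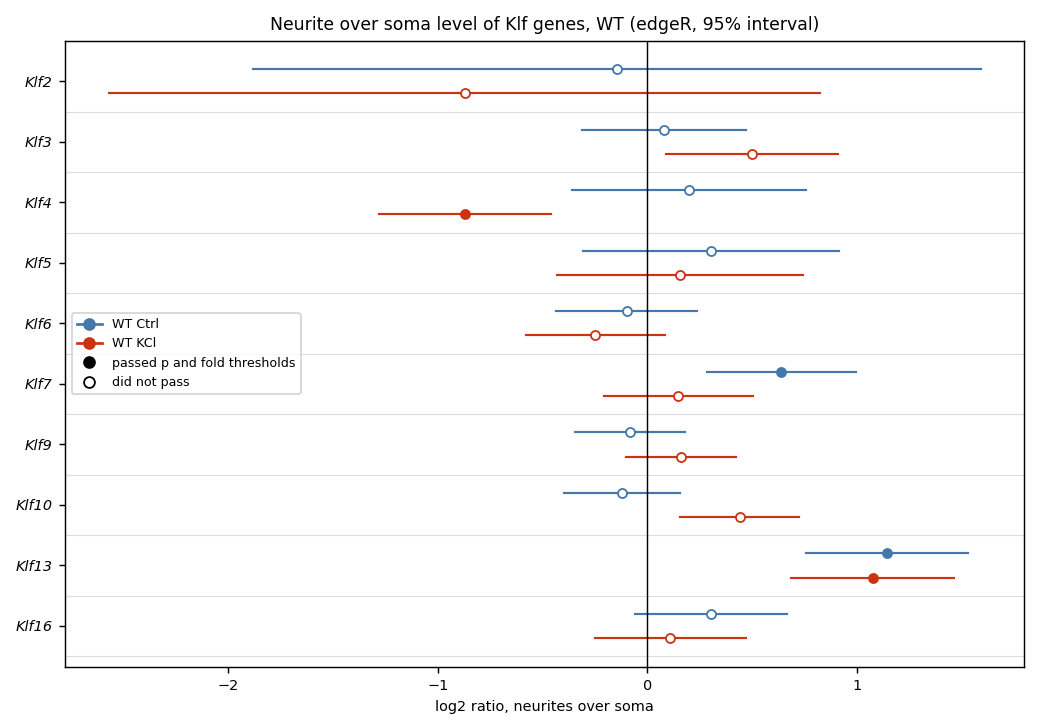
Fitted log2 ratio of neurite over soma level in WT neurons, untreated in blue and KCl-treated in red, with 95% intervals from edgeR, filled where the ratio passed both thresholds. Klf13 lies near 1 in both conditions, and the interval of Klf4 lies below 0 after KCl and spans 0 before it.

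Markers of other cell types moved with the neurite fraction too. In untreated WT inserts the astrocyte markers summed to 1179 and 1200 CPM in soma and to 2073 and 3172 in neurites. Of these, 5 of 11 were called higher in neurites, beside 9.01% of all genes. Fibroblast and mural markers summed to 30.5 to 36.0 CPM in soma and 139 to 174 in neurites, with 6 of 9 tested called higher. Oligodendrocyte-lineage markers summed to 58.0 to 66.4 CPM in soma and 115 to 124 in neurites (2 of 6 called higher). Microglial markers summed to 10.4 to 11.4 and 17.1 to 20.0 CPM (1 of 6), and neuronal markers to 4055 to 4207 and 5165 to 5730 CPM (1 of 10). The sums of endothelial markers overlapped. With KCl, astrocyte markers went from 1179 to 1200 CPM to 1674 to 1694 in WT soma, where 1 of 11, Sox9, was called higher. Fibroblast and mural markers there went from 30.5 to 36.0 CPM to 62.6 to 64.5, with 1 of 9 tested, Vtn, called higher, and microglial markers from 10.4 to 11.4 CPM to 15.8 to 17.6, with none of 6 called. None of 7 endothelial and 6 oligodendrocyte-lineage markers tested was called there. The part of these markers in the Klf13 neurite ratio and in the KCl responses was not tested.

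Genes related to the family were then counted, beside the 3.74% of all genes called higher with KCl in WT soma and the 2.96% called lower. Of 16 further Klf and Sp genes, 13 were tested in WT soma and 1 rose with KCl, Sp7, with a log2 change of 2.32 ± 0.59 (adjusted p = 0.0246). Their median log2 change was 0.32, beside −0.13 for the partner proteins, −0.07 for the pathway and −0.39 for the receptors described next and 0.01 over all genes. In neurites 1 of 13 rose, Klf14 (1.66 ± 0.38, adjusted p = 0.0243). For Sp7 and Klf14 the SE was larger than that of any member but Klf2 in the same fraction, and their counts are not given here. Of 12 genes for partner proteins, among them CtBP, Sin3 and histone deacetylases, none was called in WT soma. In neurites Sap30, a subunit of the Sin3 complex, was called (1.71 ± 0.36, adjusted p = 0.0163). Klf14, Sap30, Sox9 and Vtn are named after their values were seen. Mek5, Erk5 and Mef2 proteins form the pathway that induces Klf2 and Klf4 in endothelium. Of its 8 genes 1 was called, the upstream kinase Map3k2, with a log2 change of 1.16 ± 0.17 in WT soma (adjusted p = 0.00146) and 1.49 ± 0.18 in neurites (adjusted p = 0.000599). None of 4 genes for glucocorticoid, mineralocorticoid and thyroid hormone receptors, known inducers of Klf9, was called in WT soma.

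The genes whose pattern over the 16 libraries was nearest to each of the most changed members were found by the root mean square difference of centred log2 CPM over the 15170 genes whose mean count was 100 or more. For Klf4 these were Gadd45g (0.301), 1700016P03Rik (0.373) and Dusp1 (0.458), where the median gene differed by 2.55. For Klf6 they were Cenpq (0.34), Chd2 (0.344) and Hhip (0.354), against a median of 1.28. For Klf3 they were Rhbdf1 (0.217), Ankrd49 (0.242) and Slain2 (0.25), against 0.844. The libraries share inserts and treatments, so this is a description of likeness only.

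DART-seq gave m6A sites in 6 of the 10 RNAs, namely Klf4, Klf6, Klf7, Klf9, Klf13 and Klf16, which carried 20 of the 18231 listed sites. A score was given to 5643 RNAs, beside 55573 genes in the count table, of which 23566 had a symbol in the authors' neurite comparisons. The share among genes expressed as highly as the members was not counted. Klf2, Klf3, Klf5 and Klf10 were not among the 5643 RNAs with a score. The authors called sites only where enough reads covered a position, so a missing score does not show that an RNA lacks m6A. The site with the highest share of C-to-U conversion in each RNA is shown, as 21 bases 5′ to 3′ on the strand of the gene (GRCm38), with the RAC triplet (R is A or G) in capitals. The A of the triplet is the candidate m6A and its C the converted base.
Klf9 (chr19:23166221-23166241, plus strand): ggaaggaaGACgccacaatga
Klf7 (chr1:64032458-64032478, minus strand): aggtttatGACacgtcctcct
Klf4 (chr4:55527208-55527228, minus strand): aaaaaatgAACattttgtgga
Klf13 (chr7:63891132-63891152, minus strand): tggggcagAACaggacagctg
Klf16 (chr10:80569045-80569065, minus strand): cgcccggcGACatcccggctt
Klf6 (chr13:5866695-5866715, plus strand): gatgagttGACcagacacttc

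The converted base of these sites lay in the 3′UTR of Klf9, Klf7, Klf4 and Klf13 and in the coding sequence of Klf16 and Klf6 (GENCODE M21). Of all 20 sites, 13 lay in a 3′UTR, 5 in coding sequence, 1 in a 5′UTR and 1, in Klf4, in no exon of a protein-coding transcript. The same split was not counted over all listed sites, so it cannot be called particular to these RNAs. All 5 sites of Klf13 and 5 of 6 in Klf9 were in the 3′UTR, in the last exon. The triplet was AAC in 10 sites and GAC in 10. The RAC triplet was required when sites were selected, so it is no result. Conversion at the 20 sites ran from 0.94% to 10.8%, with a median of 3.60%, beside a median of 3.54% over all listed sites. The highest values were 10.8% in Klf9 and 10.03% in Klf7. Coverage per site is not given, so no interval is attached.

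The score of an RNA sums its converted fractions over called sites, averaged by the authors over libraries with Ctrl and KCl together. It grows with the number of sites. The listed site fractions do not add up to the WT score in every RNA. For Klf4 they summed to 0.172, against a WT score of 0.106, and for Klf16 to 0.0881 against 0.089. The reason was not tested. Klf9, with 6 sites, had a WT score of 0.318, above 90.7% of the 5643 RNAs. Klf13 (0.129, 5 sites), Klf7 (0.107, 1 site), Klf4 (0.106, 4 sites) and Klf16 (0.089, 2 sites) lay near the median of 0.103, and Klf6 (0.0535, 2 sites) below it. Klf7 reached its score with 1 site. Scores in KO were 0.00287 to 0.092, lower than in WT for all 6, which the selection of sites against KO libraries fixes.

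Between fractions, 4 of 6 RNAs had the higher score in neurites, as did 68.8% of all scored RNAs. The score of Klf9 was 0.406 in neurites and 0.269 in soma, and that of Klf7 was 0.152 and 0.0323. Klf16 had 0.128 and 0.0654, and Klf6 0.09 and 0.0241. Klf4 and Klf13 went the other way, with 0.0543 in neurites against 0.132 in soma for Klf4 and 0.107 against 0.148 for Klf13. These scores pool Ctrl and KCl, whereas the neurite ratios of RNA were taken in each condition, so the scores were not set against those ratios. The scores are pooled values without replicates, and no difference between them was tested.

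**Figure D5:**
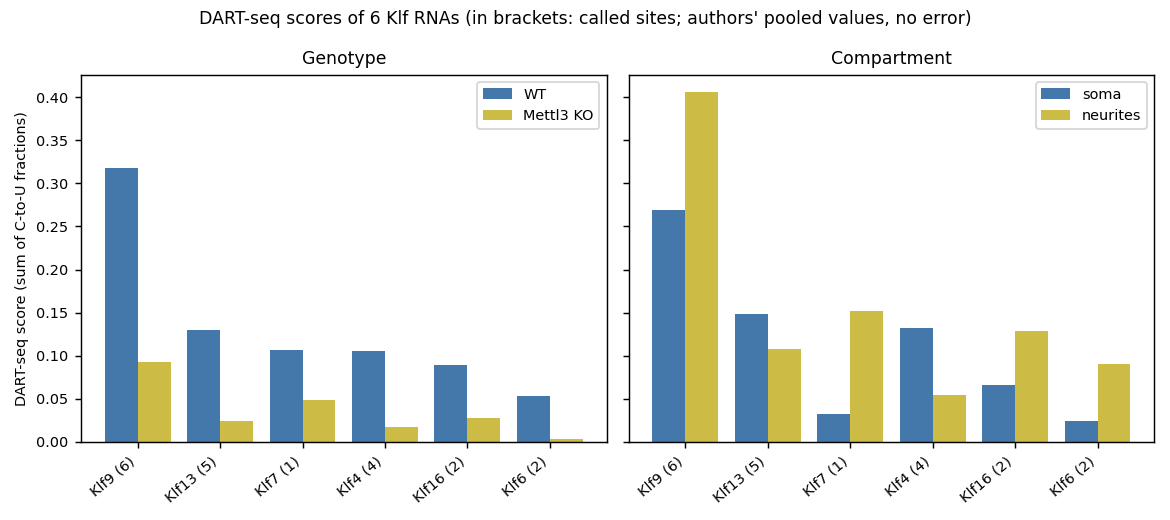
DART-seq score (sum of C-to-U fractions) of the 6 Klf RNAs with called sites, WT beside Mettl3 KO and soma beside neurites, with the number of sites in brackets; these are the authors' pooled values without error. Klf9 has the highest score in each, and Klf4 and Klf13 are the RNAs with a lower score in neurites than in soma.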

How the data were processed

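Counts of fragments per gene were deposited for the 16 RNA-seq libraries. Following their methods and processing notes, the authors trimmed reads with Flexbar, aligned them to mm10 with STAR 2.7.7a and counted fragments on Ensembl exons with featureCounts 2.0.1, without a strand option and with multi-mapping reads included. A read over 2 genes counts for neither by default in that tool, which can lower Klf7 and Klf3. Exon length per gene, the other measure deposited with the counts, was used for levels per kilobase. For DART-seq the authors pooled libraries and deposited, per site, the fraction of C-to-U conversion and, per RNA, a score. Sites needed a minimum number of reads, an RAC triplet and at least a 1.5-fold higher conversion in WT than in KO. Depth per site is unknown. Columns of the authors' own DESeq2 comparisons (fold changes and p-values) were not used.

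The 10 members, the gene lists and the tests were chosen with earlier results of these data known. Named are all 10 members, from each list of related genes those called in WT soma with KCl, the 3 nearest patterns of the 3 members with the largest change there, and Fos and Mettl3 as checks. The 37 mitochondrial genes were left out. Contrasts within a genotype were fitted with edgeR 4.0.16 (quasi-likelihood, TMM) on its 8 libraries, because the KO libraries vary more, and contrasts between genotypes on all 16. Genes under a mean count of 10 were left out of each fit. A call required an edgeR p adjusted by Benjamini-Hochberg at or under 0.05 and a change of 2-fold (KCl) or 1.5-fold (other contrasts). The scripts were tested on simulated data. With 2 litters per group the p-values rest on few replicates.

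Whether the replicate number pairs libraries was checked by correlating duplicate differences across genes. Soma and neurites with the same number correlated at −0.141, 0.0153, 0.0716 and 0.901, and Ctrl and KCl at −0.0855 to 0.187. The methods link Ctrl and KCl by litter and fractions by insert but do not tie the numbers to them, so the fits have no block.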

Additional observations from a re-analysis of the deposited data

How the results depend on the processing

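With 2 libraries per group the p-values rest on few degrees of freedom, and Klf2 was also counted in few fragments. Member values were kept for members picked per comparison, those whose fitted values the text was to report. Of 500 such values recomputed under alternatives, 456 kept their direction and their side of the threshold. Members outside this set, such as Klf2 in untreated KO against WT soma, are not in that number. Of the recomputed counts of called members, which cover all 10, 92 of 115 were equal to the reported count. The calls of Klf4 and Klf6 in WT soma and WT neurites held under all 11 alternatives tried in each. Fitting all 16 libraries together left 2 members called in WT soma (Klf4 and Klf6; 4 in the fit of WT alone), with 320 genes higher and 21 lower against 899 and 712. That fit called 0 members as neurite-enriched or depleted in WT Ctrl and 0 in WT KCl (2 in each otherwise), and 0 genes against 2091 higher and 1054 lower in Ctrl and 1582 and 629 in KCl.

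In the KO the count of called members went from 0 to 2, Klf4 and Klf6, in both fractions under DESeq2, without a filter on low counts and with all 16 libraries. Genes called higher and lower there were 695 and 85 in soma and 693 and 49 in neurites without the filter, and 231 and 46, and 208 and 15, with all 16 libraries, against 0. Leaving out KCl-treated KO insert 1, which was chosen after seeing the data, gave 1 member, Klf4, and 19 genes in KO soma. Without the filter, 1 member (Klf4), 55 genes higher and 36 lower were called for the change in neurite enrichment, and 203 higher and 26 lower for the genotype difference, against 0. For untreated KO against WT soma, DESeq2 and the unfiltered fit each called 1 member (Klf2), with 191 genes higher and 226 lower and 327 and 178, against 15 and 29. The cause of these shifts was not tested.

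Leaving out 1 library at a time gave 1 to 2 called members for neurite enrichment in WT Ctrl, 1 to 2 in WT KCl, and 0 to 1 for KO against WT, where 629 genes higher and 2076 lower were called without KO soma replicate 1. Genes called lower with KCl were 218 in WT soma without untreated replicate 1 and 134, against 375, in WT neurites without KCl replicate 2. Genes lower in WT Ctrl neurites were 92 without soma replicate 2. For the genotype difference 1317 were higher and 128 lower without untreated KO soma replicate 1, and for the change in enrichment 284 and 12 without KCl-treated WT soma replicate 2, against 0. Among the recomputed member values, the log2 changes that turned sign had not passed the test in the reported fit. That of Klf13 in WT soma was 0.019 with DESeq2, 0.019 with RLE scaling, 0.069 with all 16 libraries and −0.23 to 0.23 with 1 library left out, and in WT neurites it ranged from −0.26 to 0.14. Klf2 in WT neurites ranged from −0.34 to 0.94, Klf3 from −1.33 to 0.17 in KO soma and from −1.16 to 0.36 in KO neurites, and the neurite ratio of Klf6 from −0.17 to 0.029 in WT Ctrl and from −0.47 to 0.042 in WT KCl.

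A replicate block changed no call of a member and no count of called members. Over these counts and the same picked set of member values, 60 of 61 blocked results kept their direction and side of the threshold. The exception was Klf2 in WT neurites (−0.026). A block per insert, taking the replicate number within each treatment as the insert, was also added after seeing the data. It was fitted for neurite enrichment in WT Ctrl, in WT KCl and for its change, and changed no count of called members in these 3.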
